A study of Homo sapiens with 4 samples.

Results

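The cancer-testis antigen families were followed through 4 arrays on which Meg-01 clones with GATA1 knockdown were compared with control cells. Members were the 72 non-control probes, of 41000 on the array, whose gene name begins with MAGEA, MAGEB, MAGEC, GAGE, PAGE, XAGE, SSX, CT45, CTAG, SPANX or VCX, or is SAGE1, PRAME or RP13-36C9.6, the array's name for CT45A5. They carry 60 of the array's 30499 gene names (a probe without a gene counts under its own ID), and 57 of the 72 probes lie on chromosome X. By its letters the rule also takes in 12 probes of CTAGE genes, whose name stands for cutaneous T-cell lymphoma-associated antigen, and 1 probe of SSX2IP, a protein that binds SSX2 and is found at cell junctions and the centrosome. Without these 13, 59 probes of the families proper remain. These families were chosen on the log2 ratios of the same arrays, in which some of them stood far from the control, so the members' ratios below are a description and are not tested.

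Meg-01 is an established human megakaryoblastic leukemia line. GATA1 5-13 and GATA1 4-14 are each a single clone, grown out of a colony after infection with GATA1 shRNA lentivirus, and GATA1 Neg is a pool of cells that received a lentivirus with a control shRNA, so every RNA came from virus-infected cells and none from the parental line. Each clone was hybridized against GATA1 Neg on 2 arrays with the dyes exchanged, so a clone is 1 replicate measured 2 times and the SDs given for a clone are those of its arrays. Because both clones were set against the same control RNA, a departure in GATA1 Neg itself would appear in both, and a clone's own history cannot be told apart from the knockdown. The labels give Meg01 as the cell line of every sample, while their text on RNA extraction speaks of clones of CMK, another megakaryocytic line.

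Cancer-testis genes are active in male germ cells and, apart from the placenta, are mostly silent in other healthy tissues. Many lie on chromosome X in groups of recent copies, and in adult somatic cells methylation of CpG dinucleotides in their promoters is a well known part of keeping them off. They come on again, often several at a time, in melanoma, lung cancer and some leukemias, where peptides from their proteins can be seen by T cells.

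The targeted gene was lower on every array. The log2 ratios of GATA1, the zinc finger factor of red cell and megakaryocyte development, were -0.21 and -0.34 in GATA1 5-13 and -0.43 and -0.58 in GATA1 4-14, or 82.7% and 70.6% of GATA1 Neg. These values rest on the array's single GATA1 probe (A_24_P374244). The study reported lower GATA1 transcripts by RT-PCR and, at the protein level, a larger decrease than these ratios show. The log2 ratio here is always clone over GATA1 Neg. Between 61.6% and 66.4% of spots per colour were well above background and 0 were saturated. Log2 ratios over all probes correlated at 0.806 between the arrays of GATA1 5-13, at 0.641 between those of GATA1 4-14 and at 0.171 to 0.409 between clones. Of 13 megakaryocyte marker genes, 9 had a probe well above background in GATA1 Neg on all 4 arrays, among them ITGA2B, ITGB3 and GP9, while PF4, SELP and VWF were not well above background in any RNA. Of 17 germ cell genes, 4 had such a probe, namely ACR, DAZL, SYCP2 and SYCP3.

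Most probes of these families were not detected in the control cells. In GATA1 Neg 30 of the 72 members were well above background on all 4 arrays, and 18 of the 59 without CTAGE and SSX2IP, against 59.8% of all 40974 probes tested. A further 36 members were not well above background in any RNA on any array, against 31.1% of all probes, and 6 were above it in some RNA on some array only. The families differed widely in this. All 4 VCX probes, both CT45 probes, both PRAME probes and the SAGE1 probe were above background in GATA1 Neg on all 4 arrays, whereas none of 5 SPANX, 10 SSX, 8 MAGEB and 2 CTAG probes was. In between lay MAGEA with 3 of 11, PAGE with 2 of 5, MAGEC with 2 of 3, and GAGE and XAGE with 1 of 3 each. Among the CTAGE probes 11 of 12 were above it.

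**Figure D1:**
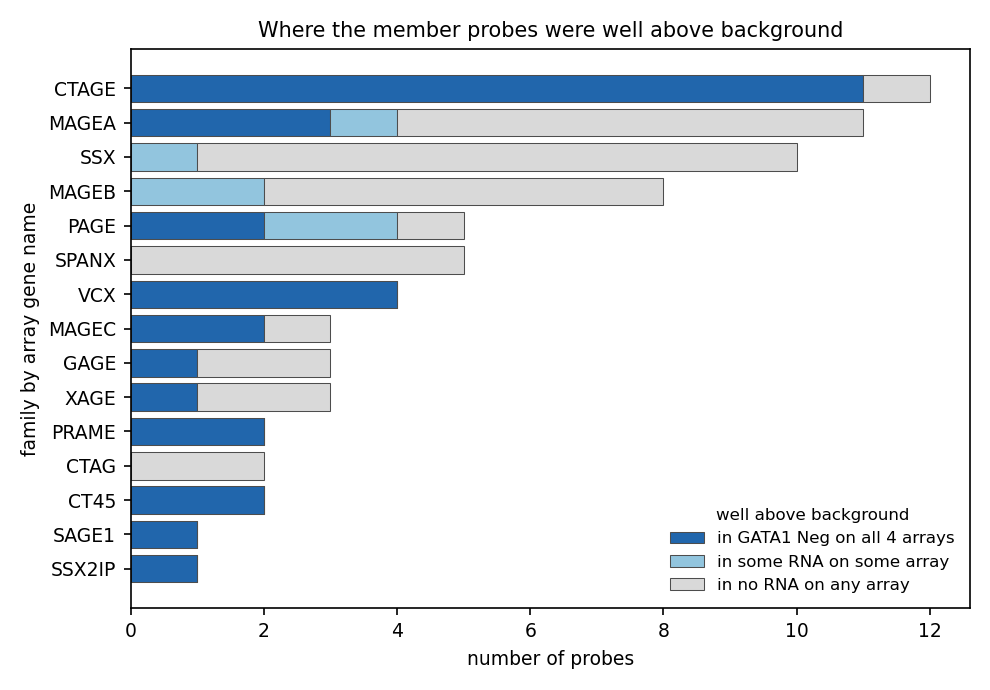
Number of member probes of each family (vertical axis) that were well above background in GATA1 Neg on all 4 arrays (dark blue), in some RNA on some array (light blue) or in no RNA on any array (grey). VCX, CT45, PRAME and SAGE1 are dark throughout, SPANX and CTAG are grey throughout, and 36 of the 72 probes fall in the grey class.

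The members that departed furthest from GATA1 Neg did so in both directions. A probe was counted where its ratio was at least 2-fold on both arrays of a clone. In GATA1 5-13, 6 members were higher, where 0.478% of all probes were, and 3 were lower, where 0.666% were. In GATA1 4-14, 6 were higher beside 0.349% of all probes and 3 lower beside 0.207%. On all 4 arrays 5 members were higher, beside 0.0879% of all probes, and 3 were lower, beside 0.139%. In 2 members 1 clone was at least 2-fold and both arrays of the other clone lay in the other direction, beside 0.3% of all probes. Nothing is read from these shares, because the same ratios led to the choice of the set. None of the 13 CTAGE and SSX2IP probes was among those counted. On the rest of chromosome X, of 1363 other probes 2 were higher and 14 lower in GATA1 5-13, 10 higher and 3 lower in GATA1 4-14, and 0 higher and 3 lower on all 4 arrays. The median over all 72 members was 0.07 in GATA1 5-13 and -0.01 in GATA1 4-14, while that over all probes was 0 in both.

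**Figure D2:**
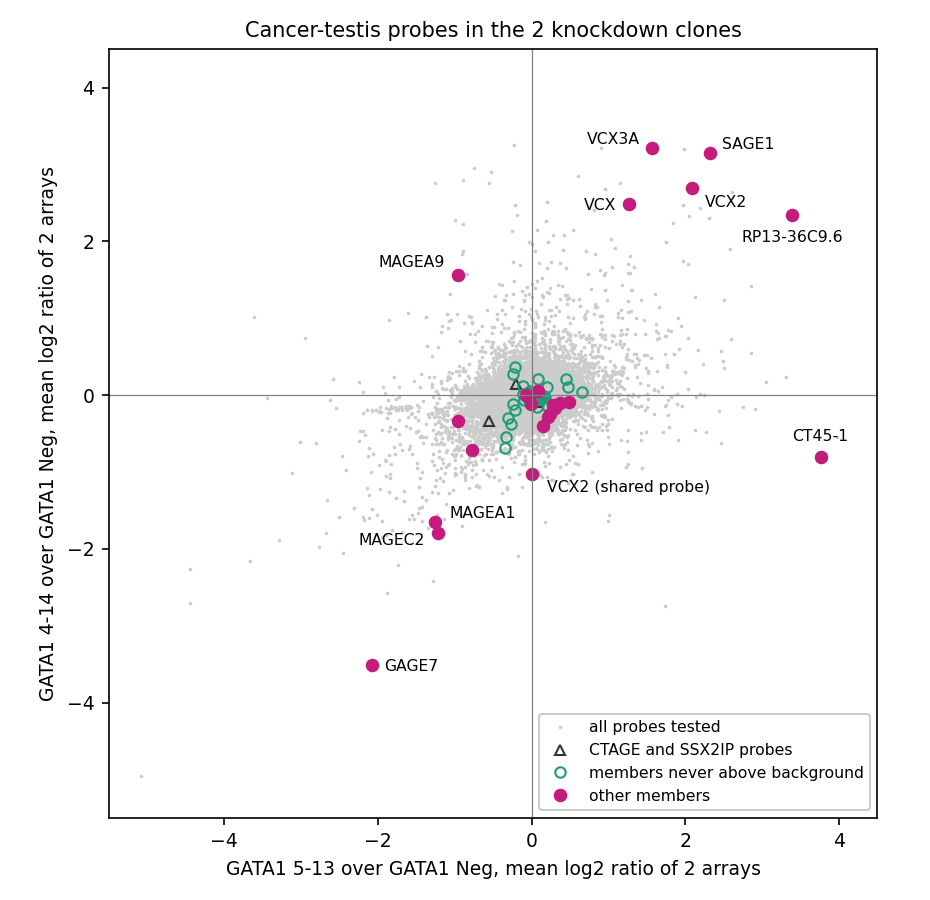
Mean log2 ratio over GATA1 Neg in GATA1 5-13 (horizontal axis) and in GATA1 4-14 (vertical axis) for all 40974 probes tested (grey dots) and for the members, with those never above background as open circles and CTAGE and SSX2IP as triangles. SAGE1, RP13-36C9.6, VCX, VCX2 and VCX3A lie far to the upper right, GAGE7, MAGEA1 and MAGEC2 to the lower left, and CT45-1 and MAGEA9 in the opposite corners.

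With limma on the 2 clone means, 0 of the 40974 probes passed a Benjamini-Hochberg adjusted p of 0.05. At an unadjusted p of up to 0.005, 134 of all probes were higher and 235 lower, and at an unadjusted p under 0.05 there were 1386 and 1656. The study also used a limit of 0.005, but on p-values of its own error model, so its calls are not set beside these. No p-value is given for the members, since they were chosen on the comparison of these clones with GATA1 Neg.

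The CT45 and SAGE1 genes held the largest ratios in GATA1 5-13 among the members, and were high in GATA1 4-14 at SAGE1 and RP13-36C9.6. CT45 proteins are nuclear antigens encoded by a row of near-identical genes, and SAGE1, sarcoma antigen 1, is the gene next to that row. The SAGE1 probe (A_23_P21943, chrX:134821661-134821720 in hg18) gave log2 ratios of 2.25 and 2.39 in GATA1 5-13 and 3.09 and 3.21 in GATA1 4-14. All 4 arrays were high, and GATA1 4-14 was the higher clone. SAGE1 was thus 4.99-fold higher in GATA1 5-13 (log2 2.32 ± 0.10, SD, n = 2 arrays) and 8.86-fold higher in GATA1 4-14 (3.15 ± 0.09). RP13-36C9.6 (A_32_P170547, chrX:134775741-134775800), whose probe is annotated to CT45A5 alone, gave 3.49 and 3.30 in GATA1 5-13 and 2.41 and 2.27 in GATA1 4-14. It was high on all 4 arrays as well, with the order of the clones exchanged, at 10.5-fold and 5.06-fold.

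The other CT45 probe went a different way. CT45-1 (A_32_P780817, chrX:134682668-134683108) is annotated to CT45A1, CT45A3 and CT45A6 together, so the copies cannot be told apart on it. Its ratios were 3.73 and 3.79 in GATA1 5-13, the highest value of any member at 13.5-fold, but -0.98 and -0.63 in GATA1 4-14, where the signal was 57.2% of GATA1 Neg. The probe was well above background in every RNA on every array, so the low side in GATA1 4-14 was measured and is not a floor. GATA1 4-14 therefore gave more signal than GATA1 Neg at the CT45A5 probe and less at the CT45A1, CT45A3 and CT45A6 probe of the same row, while GATA1 5-13 gave more at both. The files do not give probe sequences, and which CT45 copies each probe detects was not tested.

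The SAGE1 and CT45 starts can be seen in the sequence. In RefSeq (GRCh38.p14) SAGE1 begins on the forward strand at chrX:135893716 and 1 of the 2 listed starts of CT45A10 is on the reverse strand at chrX:135893444, back to back with SAGE1 and 272 bases away, so that the sequence shown for SAGE1 lies between them. The other CT45A10 start is 4820 bases from that of SAGE1. The 250 bases before SAGE1 (chrX:135893466-135893715, forward strand) and before CT45A1 (chrX:135713389-135713638, forward strand) are shown with CpG in capitals, 13 in the first and 7 in the second. RefSeq promoters of CT45A5, CT45A3 and CT45A6 were not used here.
SAGE1: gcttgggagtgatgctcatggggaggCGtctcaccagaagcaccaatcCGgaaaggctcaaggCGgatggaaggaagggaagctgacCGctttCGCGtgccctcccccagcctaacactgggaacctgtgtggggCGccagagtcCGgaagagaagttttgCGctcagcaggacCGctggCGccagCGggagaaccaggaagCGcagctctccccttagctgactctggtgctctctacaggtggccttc
CT45A1: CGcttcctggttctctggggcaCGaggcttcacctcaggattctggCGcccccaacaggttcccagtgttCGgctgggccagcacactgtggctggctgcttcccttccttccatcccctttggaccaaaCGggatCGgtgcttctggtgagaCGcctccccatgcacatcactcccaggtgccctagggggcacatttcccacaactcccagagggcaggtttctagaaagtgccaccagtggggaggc
When the SAGE1 sequence was read on its reverse strand, 202 columns of a local alignment with CT45A1 held 74.3% identical bases, and read on its own strand 65 columns aligned, with 64.6%. Over global alignments of the whole 250 bases the order was the other way, with 47.8% on the reverse strand and 52.6% on its own.

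Other genes around SAGE1 did not share its size. Within 500 kb of its probe lay 12 probes outside the families, 11 of them above background in GATA1 Neg on all 4 arrays, with mean log2 ratios from -1.09 to 0.89 in GATA1 5-13 and from -0.08 to 1.63 in GATA1 4-14. The lowest value in GATA1 5-13 was that of FHL1, a LIM domain gene 298 kb away, which averaged 0.87 in GATA1 4-14. The highest in both clones were those of the unnamed probe A_24_P489976 on the other side. The medians of the 11 were -0.16 and 0.21.

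VCX probes gave the second group that was higher in both clones. VCX stands for variable charge X-linked, a family of small basic proteins of male germ cells with relatives on chromosome Y. The VCX2 probe that matches that gene alone (A_32_P33083, chrX:8098102-8098161) gave 2.16 and 2.01 in GATA1 5-13 and 2.73 and 2.65 in GATA1 4-14, or 4.25-fold and 6.45-fold. The VCX probe (A_24_P245976, chrX:7771756-7771815), also of 1 gene, gave 1.39 and 1.16 against 2.66 and 2.33, or 2.42-fold and 5.64-fold. The VCX3A probe (A_24_P23979, chrX:6461941-6462000), which VCX and VCX3B share, gave 1.64 and 1.5 against 3.26 and 3.16, or 2.97-fold and 9.25-fold. In all 3 every array was high, and the mean was higher in GATA1 4-14. This difference between single clones was not tested.

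A further probe named VCX2 (A_24_P230282, chrX:8098354-8098605) is annotated to VCX2, VCX3A, VCX and VCX3B at once, and it did not follow the others. Its ratios were 0.06 and -0.04 in GATA1 5-13 and -0.93 and -1.12 in GATA1 4-14. It was well above background in every RNA, so probes assigned to the same genes disagreed in direction in GATA1 4-14 (-1.02 ± 0.13 here against 2.69 ± 0.06 at the other VCX2 probe). Here too, which copies each probe detects was not tested.

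**Figure D3:**
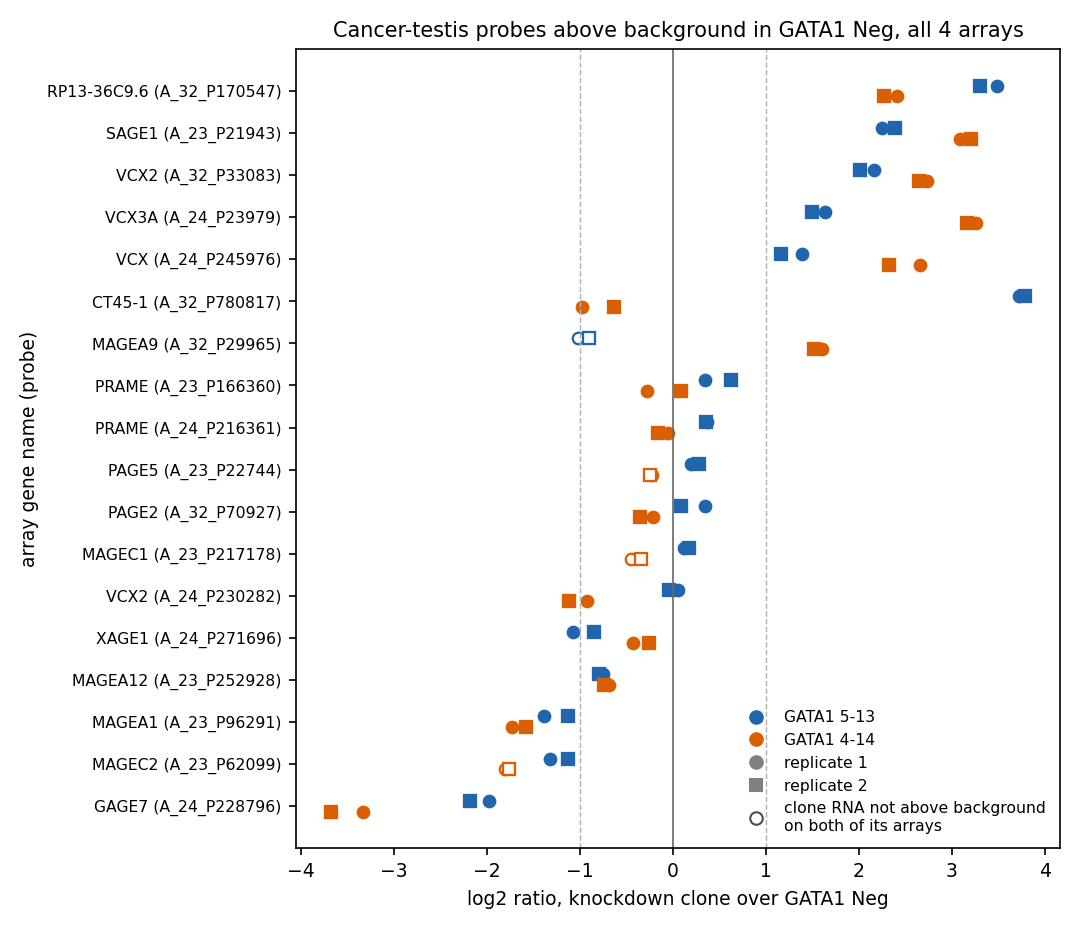
Log2 ratio over GATA1 Neg (horizontal axis) of the 18 probes of the families proper that were well above background in GATA1 Neg on all 4 arrays, 1 row per probe, with GATA1 5-13 in blue, GATA1 4-14 in orange, replicate 1 as circles and replicate 2 as squares. Open symbols mark a clone whose own RNA was not above background on both of its arrays, and dashed lines mark 2-fold. The arrays of a clone lie close together in every row. The clones lie on opposite sides of 0 for CT45-1 and MAGEA9, and, nearer to 0, for MAGEC1, PAGE2, PAGE5 and PRAME (A_24_P216361).

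For VCX, VCX2 and VCX3A a probe annotated to the gene was higher in both clones, although that of VCX3A is shared. The sequence before the listed start of VCX differs from those before VCX2 and VCX3A, which are alike. Whether the listed starts correspond between these genes was not tested. The 250 bases before the starts of VCX (chrX:7842921-7843170, forward strand), VCX2 (chrX:8171268-8171517, reverse strand) and VCX3A (chrX:6535119-6535368, reverse strand) in GRCh38.p14 are shown, again with CpG in capitals.
VCX: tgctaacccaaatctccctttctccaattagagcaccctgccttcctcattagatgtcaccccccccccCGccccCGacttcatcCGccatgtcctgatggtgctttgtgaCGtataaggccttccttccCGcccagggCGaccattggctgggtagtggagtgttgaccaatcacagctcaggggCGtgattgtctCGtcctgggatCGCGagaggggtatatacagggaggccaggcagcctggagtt
VCX2: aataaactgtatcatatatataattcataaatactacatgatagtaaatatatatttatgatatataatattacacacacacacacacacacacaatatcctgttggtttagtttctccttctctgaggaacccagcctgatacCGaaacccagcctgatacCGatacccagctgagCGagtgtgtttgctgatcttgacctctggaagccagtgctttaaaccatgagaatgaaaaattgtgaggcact
VCX3A: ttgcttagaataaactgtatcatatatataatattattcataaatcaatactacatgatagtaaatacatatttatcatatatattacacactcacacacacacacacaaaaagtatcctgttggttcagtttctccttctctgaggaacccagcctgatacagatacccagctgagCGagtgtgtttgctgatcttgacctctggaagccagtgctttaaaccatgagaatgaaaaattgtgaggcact
VCX2 and VCX3A were 83.0% identical over a global alignment and held 3 and 1 CpG. VCX had 10 CpG and was 49.5% and 48.1% identical to them, close to the 46.5% found between SAGE1 and VCX2, which are not related. VCX was 58.0% G and C, and VCX2 and VCX3A were 37.2% and 35.6%.

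Between VCX and VCX2 lies PNPLA4, a lipid hydrolase gene. Its probe A_23_P159797, 57.7 kb from the VCX probe, averaged a log2 ratio of 3.25 over the GATA1 4-14 arrays, with both RNAs above background. At A_24_P943815 GATA1 Neg was not above background on any array, and the gene was at least 2.97-fold higher in GATA1 4-14. In GATA1 5-13 the clone's signal was not above background on either array at both probes. These were the 2 probes of other genes within 500 kb of VCX or VCX2 that passed 2-fold, both in GATA1 4-14. Of the 4 VCX probes, 3 were higher in both clones.

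**Figure D4:**
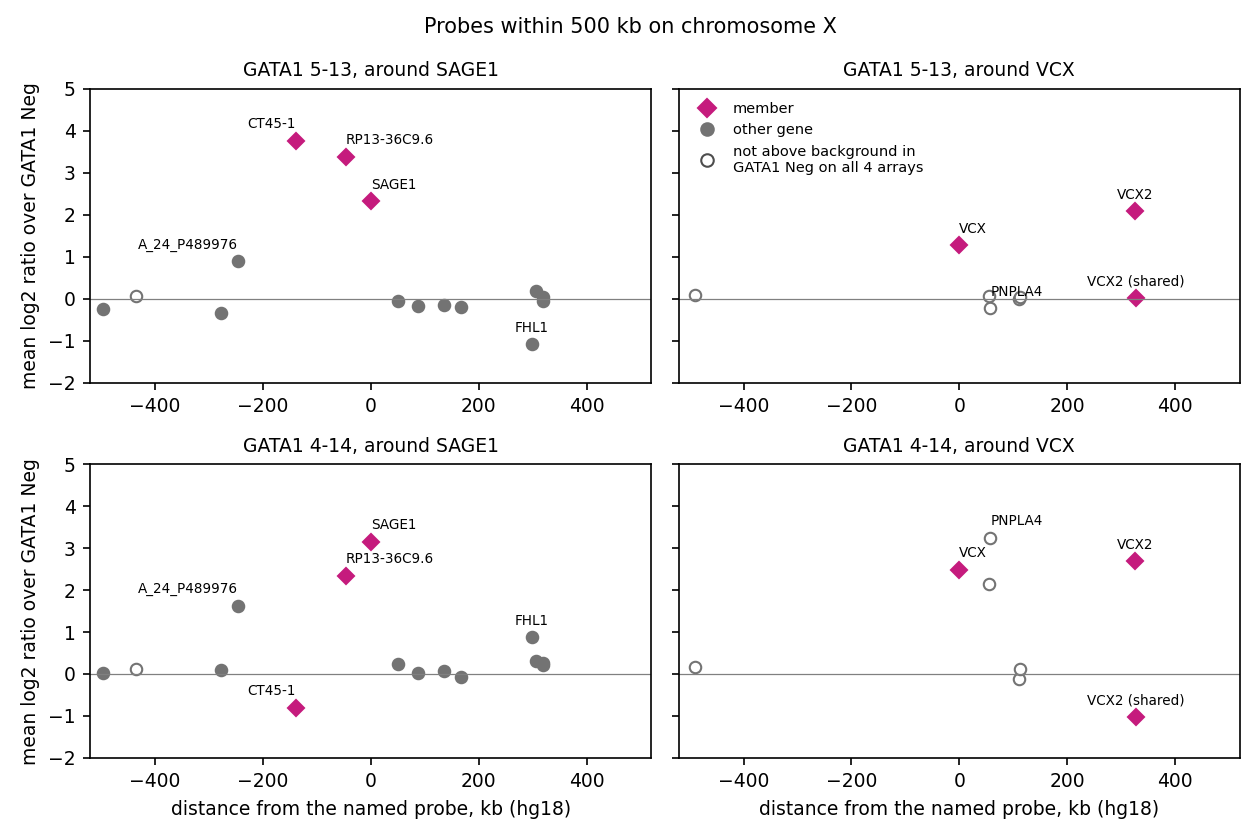
Mean log2 ratio over GATA1 Neg (vertical axis) of probes within 500 kb of the SAGE1 probe (left) and the VCX probe (right) by distance in kb (horizontal axis), in GATA1 5-13 (top) and GATA1 4-14 (bottom), with members as diamonds and other genes as circles, open where the probe was not above background in GATA1 Neg on all 4 arrays. SAGE1 and RP13-36C9.6 stand high in both clones, CT45-1 in GATA1 5-13 alone, and PNPLA4 beside VCX in GATA1 4-14 alone.

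At least 2-fold lower on all 4 arrays were 3 members, each from another family. GAGE proteins are small, disordered, acidic proteins encoded by a long tandem array. GAGE7 (A_24_P228796, chrX:49105285-49105344 in hg18) gave -1.98 and -2.18 in GATA1 5-13 and -3.34 and -3.68 in GATA1 4-14. All 4 arrays were low and GATA1 4-14 was the lower clone, with 23.6% and 8.80% of GATA1 Neg left. The other GAGE probes, GAGE1 and GAGE3, were not above background in any RNA, and their array ratios ran from -0.27 to 0.14.

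The array name GAGE7 is listed by RefSeq as an older name of GAGE12F, 1 of the tandem copies. Its 250 upstream bases (chrX:49560592-49560841, forward strand, GRCh38.p14) are shown as an example of how alike the copies are.
GAGE12F: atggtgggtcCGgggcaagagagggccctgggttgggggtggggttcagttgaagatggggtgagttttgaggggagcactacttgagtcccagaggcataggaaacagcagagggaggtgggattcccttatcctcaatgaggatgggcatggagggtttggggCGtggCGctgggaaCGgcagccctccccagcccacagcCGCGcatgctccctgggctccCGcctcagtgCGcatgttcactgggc
This sequence holds 8 CpG. It was 97.6% identical to the one before GAGE12G and 94.6% to that before GAGE1, against 49.1% for SAGE1. The copies thus differ little here, and which of the copies the GAGE7 probe detects was not tested.

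MAGEA1 and MAGEC2 were the other members at least 2-fold lower on all 4 arrays. Type I MAGE proteins such as these bind RING ubiquitin ligases, MAGEC2 the co-repressor TRIM28. MAGEA1 (A_23_P96291, chrX:152134904-152134963) gave -1.39 and -1.13 in GATA1 5-13 and -1.73 and -1.58 in GATA1 4-14, or 41.7% and 31.8% of GATA1 Neg, and was above background in every RNA. MAGEC2 (A_23_P62099, chrX:141117989-141118048) gave -1.32 and -1.13 against -1.81 and -1.76. In GATA1 4-14 its signal was not well above background on either array, so it was at least 2.84-fold lower there, while in GATA1 5-13 it was 42.8% of GATA1 Neg. Both genes were low on all 4 arrays and lower in GATA1 4-14. MAGEC2 is the member that depends most on the background step: without that correction its log2 ratios were -0.55 in GATA1 5-13 and -0.70 in GATA1 4-14, short of 2-fold in both, and with the scanner software's own ratios they were -2.06 and -3.73.

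MAGEA9, another type I gene, was split between the clones. MAGEA9 (A_32_P29965, chrX:148676929-148676988) gave -1.02 and -0.90 in GATA1 5-13 but 1.60 and 1.52 in GATA1 4-14, where it was 2.95-fold higher, or 0.93 on the log2 scale and short of 2-fold without background correction. In GATA1 5-13 the clone's own signal was above background on 1 of 2 arrays. MAGEA9 was among the members just short of 2-fold in GATA1 5-13, as was XAGE1 (A_24_P271696), which gave -1.07 and -0.85 in GATA1 5-13 and -0.43 and -0.26 in GATA1 4-14. In GATA1 4-14 the shared VCX2 probe came nearest without passing. Just past the line in GATA1 5-13 lay VCX, whose smaller ratio was 1.16, and MAGEA1 and MAGEC2, whose smaller ratios were both -1.13.

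Upstream sequences of MAGEC2 (chrX:142205291-142205540, reverse strand) and MAGEA9 (chrX:149781680-149781929, forward strand) in GRCh38.p14 are shown for a gene lower in both clones and a gene split between them; that of MAGEA1 was not used here.
MAGEC2: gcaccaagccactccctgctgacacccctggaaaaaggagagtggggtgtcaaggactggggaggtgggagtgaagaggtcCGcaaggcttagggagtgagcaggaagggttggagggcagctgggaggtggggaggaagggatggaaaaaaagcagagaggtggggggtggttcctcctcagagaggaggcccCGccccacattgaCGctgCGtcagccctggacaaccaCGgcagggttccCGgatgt
MAGEA9: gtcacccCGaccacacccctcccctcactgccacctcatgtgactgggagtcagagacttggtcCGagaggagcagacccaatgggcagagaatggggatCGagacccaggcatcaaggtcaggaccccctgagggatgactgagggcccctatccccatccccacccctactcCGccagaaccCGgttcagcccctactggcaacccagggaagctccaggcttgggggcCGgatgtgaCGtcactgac
They held 6 and 7 CpG at 62.4% and 63.6% G and C, and were 48.9% identical.

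The remaining members above background in the control stayed short of 2-fold. MAGEA12 (A_23_P252928) was lower by a like amount everywhere, with -0.75 and -0.80 in GATA1 5-13 and -0.69 and -0.74 in GATA1 4-14, or 58.4% and 60.9% of GATA1 Neg. PRAME, a leucine-rich repeat protein that serves as a substrate receptor of a cullin ligase and is a marker of several leukemias, read 0.35 and 0.63 in GATA1 5-13 and -0.28 and 0.09 in GATA1 4-14 at A_23_P166360. Its probe A_24_P216361 read 0.37 and 0.36 against -0.05 and -0.16. Both PRAME probes were thus higher in GATA1 5-13 and near 0 in GATA1 4-14.

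MAGEC1 (A_23_P217178) gave 0.12 and 0.17 against -0.45 and -0.34. PAGE2 (A_32_P70927) gave 0.35 and 0.09 against -0.21 and -0.35, and PAGE5 (A_23_P22744) 0.20 and 0.28 against -0.23 and -0.25. All 3 were above 0 on both GATA1 5-13 arrays and below 0 on both GATA1 4-14 arrays, within 1.32-fold of GATA1 Neg in the mean of either clone.

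SSX2IP (A_23_P201376, chromosome 1), which the rule takes in by its letters, gave -0.57 and -0.54 against -0.34 and -0.33. The 12 CTAGE probes, all on autosomes, ran from -0.22 to 0.28 over single arrays. They lay closer to 0 than any of the counted members did on any array.

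Members without a level in the control stayed near 0. Over the 36 never above background the array ratios ran from -0.71 to 0.85, and 32 stayed within 0.5 of 0 on all 4 arrays. The exceptions were MAGEB6 and PAGE4, with up to 0.85 and 0.59 in GATA1 5-13, and both SPANXA1 probes, with down to -0.71 and -0.59 in GATA1 4-14. SPANX proteins are found at the nucleus of sperm, and SSX proteins are known as fusion partners in synovial sarcoma. The 10 SSX probes had medians of 0.09 and 0 in the clones and the 5 SPANX probes -0.27 and -0.37. The 6 members above background only here and there were MAGEA5, MAGEB1, MAGEB2, PAGE1, PAGE2B and SSX5, whose array ratios lay between -0.22 and 0.36. A ratio between signals at background carries no level of either RNA.

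Within a family the probes did not move as one. The VCX medians were 1.42 and 2.59 in GATA1 5-13 and GATA1 4-14, but the family spanned 0.01 to 2.09 and -1.02 to 3.21. CT45 spanned 3.39 to 3.76 in GATA1 5-13 and -0.81 to 2.34 in GATA1 4-14. MAGEA, with 11 probes, had medians of -0.11 and -0.01 and spanned -1.26 to 0 and -1.65 to 1.56. PAGE2 and PAGE5, the PAGE probes above background in GATA1 Neg on all 4 arrays, were both above 0 on the GATA1 5-13 arrays, as were 32.8% of all probes, and below 0 on the GATA1 4-14 arrays, as were 28.6%.

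Other cancer-testis genes outside these families are given as counts. No contrast with the families is read from them, because the families were chosen on their ratios. Of all probes, 0.478% were at least 2-fold higher and 0.666% lower in GATA1 5-13, and 0.349% and 0.207% in GATA1 4-14. Of 23 probes for 20 other X-linked cancer-testis genes, 0 were 2-fold in either clone, with 4 above background in GATA1 Neg on all 4 arrays and 12 never above it. The medians were 0.05 in GATA1 5-13 and -0.03 in GATA1 4-14. Of 63 probes for 51 autosomal ones, 1 was counted, BAGE (A_23_P388331), which gave 1.54 and 1.64 in GATA1 5-13 and -0.27 and -0.23 in GATA1 4-14. The other BAGE probe (A_32_P103771), above background in every RNA, averaged 0.06 in GATA1 5-13 and 0 in GATA1 4-14. BAGE4 (A_24_P126262), also above background throughout, averaged -0.01 and 0.04. The median of the 63 probes was 0 in both clones. However, 42 of the 63 were never above background and 14 were above it in GATA1 Neg on all 4 arrays, so these counts and medians rest mostly on probes without signal.

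Type II MAGE genes are the relatives expressed in many tissues and are no cancer-testis antigens. Of their 15 probes, NDN, an imprinted growth suppressor, gave 1.22 and 1.30 in GATA1 5-13 and 1.03 and 1.13 in GATA1 4-14, and was higher on every array. MAGED4 gave -0.12 and -0.08 against 1.28 and 1.19, and was at least 2.13-fold higher in GATA1 4-14. The medians of the 15 were -0.02 and 0.02. Among 39 probes for 24 genes of DNA methylation and histone silencing, such as the methyltransferases, 0 were 2-fold, and the medians were -0.02 and 0.01. Single means ran from -0.57, at AOF2 in GATA1 5-13, to 0.57, at DNMT3B in GATA1 4-14. The 20 germ cell probes likewise held 0. Among them DAZL was above background in GATA1 Neg on all 4 arrays but in neither clone on any array. DAZL read -0.69 and -0.96 in GATA1 5-13 and -0.75 and -0.88 in GATA1 4-14, at least 1.48-fold and 1.34-fold lower. The megakaryocyte markers held 1, GP1BA (A_23_P152926), a platelet adhesion receptor with -1.77 and -1.59 in GATA1 5-13 and -0.21 and -0.12 in GATA1 4-14. The 14 probes of other blood cell markers held 0. At the shares over all probes given above, lists this short would hold few or no such probes, so no count of 0 or 1 is read as a result.

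The upstream sequences of the members held fewer CpG at the median than those of all genes, which is given as a description. RefSeq promoters were found for 42 of the 53 names of the families proper, 55 in all because some genes have several starts. Their median was 7 CpG in 250 bases, with a middle range of 4.5 to 11, against 11 and 3 to 23 over all 35116 promoters and 11 over 1184 others on chromosome X. Genes shown above with a probe of their own that was higher in both clones ran from 3 CpG in VCX2 to 13 in SAGE1. VCX3A, whose probe VCX and VCX3B share, had 1. Of the letters that GATA1 can bind, only the form AGATAA was counted. It was found on either strand in 2 of the 55 promoters, or 3.64%, namely those of MAGEB3 and PAGE1, against 9.17% of all promoters. ETS factors bind GGAAGT, found in 27.3% of the members' and 19.5% of all promoters. Read on opposite strands the motifs can share 1 base, and neither AGATAA nor GGAAGT was found in the 8 sequences printed above. Other GATA forms, such as TGATAG in the VCX2 and VCX3A sequences, were not counted.

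**Figure D5:**
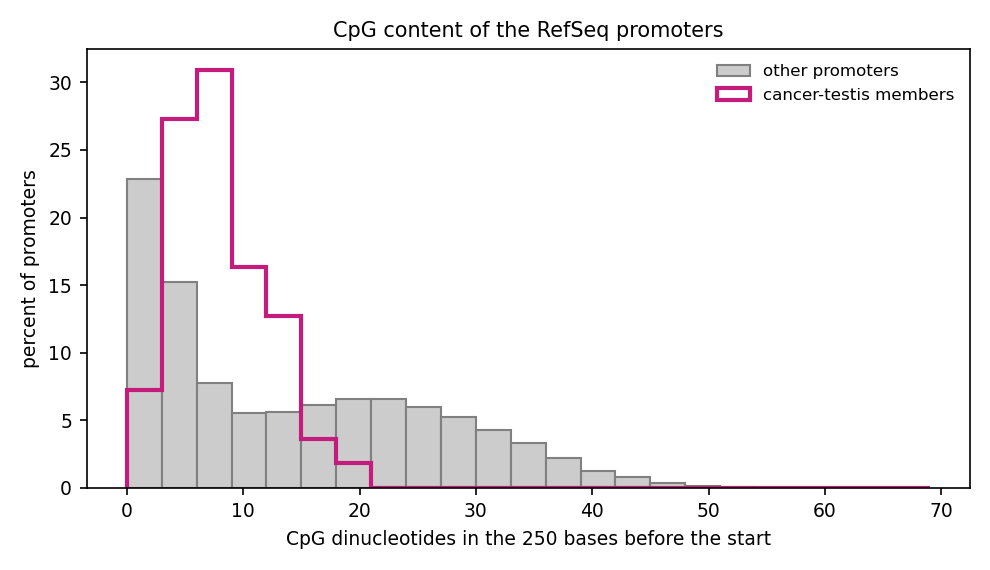
Distribution of the number of CpG dinucleotides in the 250 bases before the start (horizontal axis) as percent of promoters (vertical axis) for the 55 promoters of the families proper (outline) and all other RefSeq promoters (grey). No member promoter holds more than 18, while the grey distribution reaches 67.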

How the data were processed

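The members and the gene lists were chosen with earlier results of these data known. Per the labels, 4 two-colour Agilent 4 x 44K arrays of Meg-01 RNA were scanned, and the deposited scanner files hold spot intensity from Feature Extraction 9.5.3.1 with hg18 probe positions. A deposited series-wide table holds log10 ratios, which equal the files' own log ratios turned to clone over control (largest difference 4.97e-06), with column medians of 0. All 4 arrays lay on 1 slide. In limma 3.58.1 (R 4.3.3), the mean signals were background corrected (normexp, offset 50) and loess normalized with control spots at weight 0, outlier spots (135 to 152 of 43376 per array) were left out and spots of a probe averaged. The red dye marked the second channel of the labels, so the ratios of the swapped arrays were turned, and the 2 arrays of a clone averaged. The 2 clone means were tested against 0 over 40974 probes with Benjamini-Hochberg adjustment. The study's own error model was not used here. On simulated data of 41000 probes the fit was checked beforehand. A probe was well above background where at least 0.5 of its spots carried that mark. A bound sets the brighter group's mean against the lowest signal well above background or the dim signal itself, whichever is higher, per channel after loess and Aquantile. A clone was counted at 2-fold on both arrays. Named were members counted so with the brighter RNA above background, and members above background in GATA1 Neg on all 4 arrays; of the 11 such CTAGE probes the report gives the range. Current symbols came from RefSeq (GRCh38.p14) by accession for 46 of 60 names, otherwise by symbol or a single synonym, and promoters from its table, aligned with Biopython. Depth on arrays is limited by their number.

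Alternatives were no background correction, the Feature Extraction ratios, the series-wide table, median centring, Aquantile, outlier spots kept, a filter on dim probes, the 4 arrays as 4 values with and without the replicate number as a block, a 1.5-fold limit, and each array left out. The replicate number is the dye orientation: arrays of like dye correlated at 0.387 and 0.409 between clones and of unlike dye at 0.216 and 0.171.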

Additional observations from a re-analysis of the deposited data

Results flagged for a closer look

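In 8 of the 30 named member probes every array of GATA1 5-13 lay on one side of 0 and every array of GATA1 4-14 on the other. The same held for 10 of the 42 other members, most of them at background, and for 6512 of all 40974 probes. None of these differences was tested, since each clone is 1 replicate. Given as the log2 ratio in GATA1 4-14 minus that in GATA1 5-13, the widest were CT45-1 (A_32_P780817) with -4.57 and MAGEA9 (A_32_P29965) with 2.52. MAGEC1 (A_23_P217178) had -0.54, PAGE2 (A_32_P70927) -0.50, PAGE5 (A_23_P22744) -0.48 and PRAME (A_24_P216361) -0.47. Among the CTAGE probes, CTAGE5 (A_32_P121362) had 0.33 and CTAGE3 (A_23_P392544) -0.16, where both means were within 0.20 of 0. For PAGE5, MAGEC1 and MAGEA9, 1 array found the clone's signal at background and 3 found it above.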

How the results depend on the processing

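No direction of a counted member turned under any alternative. Of 480 values of named members under alternatives, 398 moved by no more than the SD of their arrays, 82 moved further and 0 reversed. With the Feature Extraction ratios, as with the series-wide table, 10 members were higher and 7 lower in GATA1 5-13 in place of 6 and 3. The gained ones were 6 probes not above background in GATA1 Neg (MAGEB6, PAGE1, PAGE4, SSX4B, SPANXA1 and SPANXD), MAGEA12 and MAGEA9. In GATA1 4-14 the Feature Extraction ratios added a SPANXA1 probe at background (A_32_P219660) as lower. The shares of all probes under these ratios are not given, so nothing is read from the counts. Without background correction MAGEC2 read -0.55 and -0.70 and was no longer counted, nor was MAGEA9 in GATA1 4-14 at 0.93, whereas the Feature Extraction ratios put MAGEC2 at -2.06 and -3.73. Median centring took VCX in GATA1 5-13 to 1.72 and 0.92 on its arrays. At 1.5-fold 6 members were lower in GATA1 5-13 and 7 in GATA1 4-14. The share of all probes at that limit is not given, so nothing is read from these numbers. With each array left out, the lower count in GATA1 5-13 ran from 3 to 5, the higher value without replicate 2.

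The member median in GATA1 5-13, 0.071, was 0.012 without background correction and 0.03 with the Feature Extraction ratios and the series-wide table, and 0.029 to 0.051 with an array left out. That in GATA1 4-14, -0.015, was -0.006, -0.003 and -0.003 under the same settings, -0.005 with median centring and -0.029 to -0.026 with an array left out. Calls at an adjusted p of 0.05 in limma went from 0 to 0 to 1 with an array left out, to 1240 with the 4 arrays as 4 values and no replicate block, and to 269 with the replicate number as a block. At an unadjusted p of up to 0.005 they went from 369 to 2209 and, with the block, to 1776. Those fits count arrays of 1 clone as separate, and the block is the dye orientation, not a pairing of samples. Leaving out a whole clone gave no test. Signals at background limit 36 of the 72 members.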
